A study of Mus musculus with 18 samples.

Results

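The genes described here handle triglyceride in the liver cell, from its uptake to its storage in lipid droplets: Mogat1, Dgat2, Cidea, Cideb, Cidec, G0s2, Cd36, Pparg, Plin5 and Lpl. They are 10 of 18194 genes that the array annotation names, and were taken by gene symbol as all 15 of their probe sets among the array's 45101. The brighter part of the array, down to the median probe set, was tested, and 13 probe sets of 8 genes fell in it. Cidea and Cidec were too dim for that filter and are described apart.

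Liver RNA of mouse offspring was measured on 18 arrays in 6 groups of 3. The mice belong to DUK, an outbred line bred from several outbred and inbred lines. HP pregnancy dams ate a diet high in protein (HP, 40% by weight) in pregnancy and the control diet in lactation. HP lactation dams ate the control diet in pregnancy and the HP diet in lactation, while control dams ate the control diet of 20% protein in both periods. The diets supplied equal energy. Livers were taken at postnatal day 150 or day 21. Each array carried the RNA of a pool of livers, and the labels give conflicting numbers of animals per pool. They do not say whether the pools of a group share animals, so p-values describe the spread between pools and not between animals or dams. The labels give neither sex nor the diet of the offspring after lactation. Xist, a transcript of female cells, was bright on 2 arrays, control replicate 2 at day 21 (a highest signal of 7343) and HP lactation replicate 4 at day 150 (11644), against at most 93 on the other 16. All 5 hepatocyte marker genes (Alb, Ttr, Apoa1, Cps1 and Serpina1c) were above the filter.

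Circulating lipoproteins carry triglyceride, which lipoprotein lipase (Lpl) splits at the vessel wall into fatty acids that cells take up with the help of transporters such as Cd36. Inside the cell, acyltransferases rebuild triglyceride. Mogat1 adds a fatty acid to monoacylglycerol and Dgat2 adds the last one to diacylglycerol. The product is stored in droplets whose surface proteins (Plin5, Cidea, Cideb and Cidec) and whose lipase inhibitor G0s2 govern how large the droplets grow and how fast they are emptied. Pparg encodes PPAR gamma, a nuclear receptor that is the main regulator of fat cell genes and that drives several of these genes in fatty mouse liver. The liver of newborn rodents makes lipoprotein lipase, whereas the adult liver makes little.

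Mogat1 and Pparg were the members in which diet groups of one day differed past the threshold, and their promoters are shown for that reason. Each window runs from 250 bases before to 50 bases after an annotated RefSeq start in GRCm38.p6, on the plus strand, 5′ to 3′. Capitals mark the CCAAT box and the nuclear receptor half-site AGGTCA, on either strand. The Mogat1 window is chr1:78510810-78511109, and the windows of the 3 Pparg starts are chr6:115360894-115361193, chr6:115362099-115362398 and chr6:115421816-115422115.
Mogat1: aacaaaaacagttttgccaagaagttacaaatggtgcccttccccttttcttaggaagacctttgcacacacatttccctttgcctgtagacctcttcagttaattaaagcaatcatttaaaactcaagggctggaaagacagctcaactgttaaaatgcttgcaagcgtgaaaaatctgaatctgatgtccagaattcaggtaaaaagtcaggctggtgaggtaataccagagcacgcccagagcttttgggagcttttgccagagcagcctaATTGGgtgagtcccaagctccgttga
Pparg start 1: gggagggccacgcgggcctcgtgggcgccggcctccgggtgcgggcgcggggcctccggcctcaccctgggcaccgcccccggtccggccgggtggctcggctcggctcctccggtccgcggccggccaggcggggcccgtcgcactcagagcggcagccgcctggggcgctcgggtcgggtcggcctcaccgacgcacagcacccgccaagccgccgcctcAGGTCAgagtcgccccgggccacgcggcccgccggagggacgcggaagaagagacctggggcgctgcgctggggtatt
Pparg start 2: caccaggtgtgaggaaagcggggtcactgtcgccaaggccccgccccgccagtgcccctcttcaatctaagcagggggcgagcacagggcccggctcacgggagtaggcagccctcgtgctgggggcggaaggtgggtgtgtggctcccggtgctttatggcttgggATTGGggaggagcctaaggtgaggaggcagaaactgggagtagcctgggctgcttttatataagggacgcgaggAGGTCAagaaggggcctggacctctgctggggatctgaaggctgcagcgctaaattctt
Pparg start 3: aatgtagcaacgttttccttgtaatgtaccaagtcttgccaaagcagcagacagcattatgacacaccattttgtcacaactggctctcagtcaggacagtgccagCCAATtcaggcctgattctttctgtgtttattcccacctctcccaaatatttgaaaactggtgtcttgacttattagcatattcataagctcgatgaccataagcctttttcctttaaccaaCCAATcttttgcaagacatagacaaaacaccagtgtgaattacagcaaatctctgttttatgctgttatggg

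The Mogat1 window holds 1 CCAAT box and no half-site. Of the Pparg windows, the first holds 1 half-site, the second 1 half-site and 1 CCAAT box, and the third 2 CCAAT boxes. Searched on both strands in the 11 windows of 7 members, the half-site AGGTCA was found in 5 windows (Cd36, Plin5 and Pparg) and CCAAT in 5 (Cd36, Mogat1, Plin5 and Pparg). Among all 32851 promoter windows of that length, 16.3% hold AGGTCA and 37.4% hold the CCAAT box. The letters TATAAA of the TATA box were searched on either strand and at any place in the window. They were found in 2 of the 11 windows (Cideb and Pparg) and in 13.6% of all windows. The DR1 element is a direct repeat of the half-site around 1 free base, the type of site that PPAR and its partner RXR bind. Searched as an exact repeat with no mismatch, it was in 0 of the 11 windows and in 0.0396% of all windows. Imperfect repeats were not searched. An exact match is so rare that the 0 does not show that these windows lack such sites. A DR1 element contains half-sites, so these searches overlap. Letters that match a motif do not show that a protein binds there.

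All signals below are the deposited array signals, on a scale on which every array has a trimmed mean of 500, and a signal of one probe set is not comparable with that of another. Group levels are geometric means. Changes are differences of log2 signal from 1 limma fit over all 18 arrays and 11018 genes, with Benjamini-Hochberg adjusted p-values and a threshold of 0.05. The plot of signals by array shows every value of the brightest probe set of each gene.

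**Figure D1:**
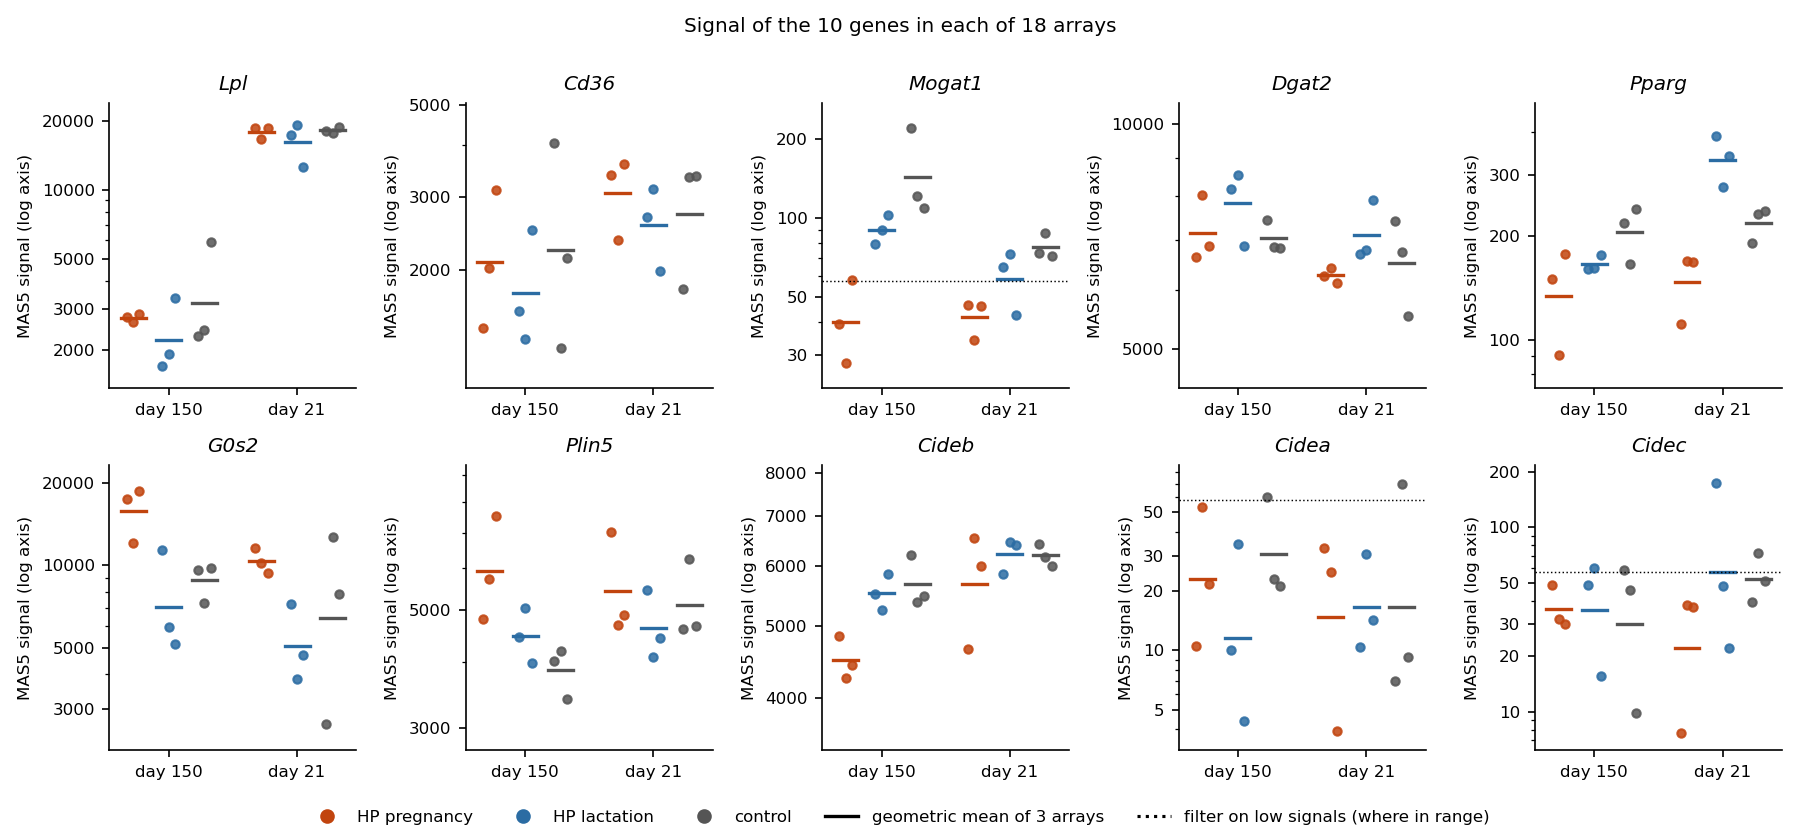
Signal of each of the 10 genes on each of 18 arrays, 1 point per array, with the geometric mean of the 3 arrays of a group as a bar. Day 150 stands left of day 21 and, within a day, HP pregnancy, HP lactation and control follow from left to right. The log axes have a range of their own in each panel. Lpl is low at day 150 and high at day 21 in all 3 diets, while HP pregnancy has the lowest group mean of Mogat1 at both days.

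Lpl was lower at day 150 than at day 21 in every diet, by 5.64-fold to 7.24-fold on its brighter probe set. On that probe set (1415904_at), HP pregnancy livers had signals of 2775, 2651 and 2865 at day 150, against 18608, 16552.5 and 18494.5 at day 21. HP lactation livers had 1698, 1919 and 3348 at day 150, against 17321, 19117 and 12507 at day 21. Control livers had 2306, 2436 and 5878 at day 150, against 17925, 17572 and 18812 at day 21. No day 150 array reached any day 21 array in any diet. The log2 change with age was -2.69 in HP pregnancy (SE 0.28, adjusted p = 2.4e-06), -2.86 in HP lactation (adjusted p = 7.9e-07) and -2.50 in control (adjusted p = 6.6e-06).

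The second Lpl probe set (1431056_a_at) showed a larger decrease with age. Tested among every kept probe set, its change was -4.79 in HP pregnancy (SE 0.36, adjusted p = 9.2e-08), -4.90 in HP lactation (adjusted p = 2.6e-08) and -3.98 in control (adjusted p = 6.6e-07). Its day 150 signals lay between 150.9 and 903.7 and its day 21 signals between 3856 and 9944. Both probe sets followed each other closely over the 18 arrays (Pearson r = 0.97), and less so once group means were removed (r = 0.71). The largest day 150 signal on both was that of control replicate 3, and without that array the change in control livers on the brighter probe set was -2.93.

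Control replicate 3 at day 150 also had the highest summed signal of its group for adipocyte markers, 1644 against 704.2 and 1000.3, and for stellate cell markers, 17631 against 12228 and 12875. The same held for hepatocyte (212943 against 164609 and 206862), macrophage (22004 against 16206 and 18001) and endothelial markers (10638 against 8770 and 10257). It also held for erythroid and skeletal muscle markers and female-biased liver genes, but not for pancreas markers or male-biased liver genes. Fabp4, a fatty acid binding protein of fat cells and macrophages, was at 1561 on that array, against 846.7 and 674.9 on the other two control arrays. Of 6 adipocyte markers, 4 had a probe set and Fabp4 alone was above the filter. Adipoq, the defining hormone of fat cells, stayed between 1.3 and 49.0 on all arrays, and Lep and Retn were also under the filter. The summed adipocyte signal was 843.5 to 1226 in HP pregnancy, 627.6 to 1200.3 in HP lactation and 704.2 to 1644 in control livers at day 150, against 1544 to 2165, 1534 to 1877 and 1491 to 2025 in the same diets at day 21. The stellate sum (7 of 7 markers above the filter) was 13323 to 17453, 12874 to 13676 and 12228 to 17631 at day 150, against 18862 to 20504, 16269 to 18072 and 16913 to 21386 at day 21. Bright genes weigh most in such sums: Dcn alone was at 8087 at day 150 and 11668 at day 21 in control livers. Dcn and Pdgfrb were the 2 stellate markers called lower with age in each diet, where 11.5%, 11.6% and 8.08% of all genes were. The stellate median log2 change was -0.26, -0.23 and -0.19. The macrophage sum (8 of 8 markers above the filter) ran the other way, at 19860 to 21376, 14734 to 22367 and 16206 to 22004 at day 150, against 13248 to 17671, 9902 to 14135 and 11757 to 13494 at day 21. So did the sum of male-biased liver genes (5 of 6 listed), at 71188 to 78289, 59645 to 75953 and 62901 to 92192 at day 150, against 33176 to 36678, 18981 to 23334 and 31618 to 33791 at day 21. Female-biased liver genes (3 of 7 listed, which were Xist, Cyp2b9 and Cyp2b13) summed to 154.9 to 323.3, 286.8 to 11675 and 233.9 to 1232 at day 150. At day 21 they summed to 2312 to 3191, 4137 to 7780 and 2246 to 10974, with an overlap in HP lactation alone. The sums of 11675 (HP lactation replicate 4) and 10974 (control replicate 2) were those of the 2 arrays with bright Xist. Cyp2b9 and Cyp2b13 were lower at day 150 without overlap in each diet, with log2 changes of -5.29 and -5.10 in HP lactation livers. The part of these marker differences in the Lpl difference was not tested. In bulk liver, fewer cells of a type and less RNA per cell cannot be told apart.

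No diet difference in Lpl passed the threshold. On the brighter probe set the HP lactation livers at day 150 had a log2 change of -0.53 against control (95% interval -1.11 to 0.04, adjusted p = 0.67), and their range overlapped that of control. Without control replicate 3 of day 150 that change was -0.10. On the second Lpl set the day 150 changes against control were -0.99 in HP pregnancy (adjusted p = 0.15) and -0.57 in HP lactation (adjusted p = 0.71), tested among every kept probe set. Its signals were 150.9, 201.9 and 253.7 in HP pregnancy and 212.0, 316.6 and 272.7 in HP lactation livers, against 268.3, 247.6 and 903.7 in control livers, and both HP groups overlapped control. Over the 18 arrays the genes whose log2 signal was most like that of Lpl were Igfbp3, which binds insulin-like growth factors (r = 0.97, or 0.71 within groups), Nt5e (0.97, or 0.64) and Car2, a carbonic anhydrase (0.97, or 0.44). Much of that likeness is the common difference between days.

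Cd36, the fatty acid transporter, differed between no groups past the threshold. On its brightest probe set (1450883_a_at) HP pregnancy livers had 1444, 2022 and 3113 at day 150, HP lactation livers 1591.5, 1362.5 and 2495.5, and control livers 4047, 1292 and 2137. At day 21 the signals were 3395, 2362 and 3594 in HP pregnancy, 2687, 3137 and 1984 in HP lactation and 1795.5, 3342 and 3358 in control livers. The diet groups overlapped at both days. The within-group SD of log2 signal was 0.53, larger than for 91% of the genes tested, where the median gene had 0.23. That spread was shared by the probe sets: the 3 Cd36 sets correlated with each other at r = 0.77 to 0.93 after group means were removed. Over all 18 arrays r was 0.58 to 0.89. In every diet the day 150 group mean lay below that of day 21 on the brightest set, but above it on the other sets. In HP pregnancy livers it was 2087 against 3066 on the brightest set, and 2380 against 2177 on 1423166_at. Control replicate 1 at day 150 was the highest of its group on all 3 sets.

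Mogat1, which makes diacylglycerol from monoacylglycerol, was 3.57-fold lower in HP pregnancy livers than in control livers at day 150. HP pregnancy livers had signals of 39.3, 27.9 and 58.0, HP lactation livers 79.1, 90.1 and 102.7, and control livers 219.6, 120.9 and 108.9. The 3 diet groups did not overlap at that day: HP pregnancy was lowest, HP lactation next and control highest. The log2 change of HP pregnancy against control was -1.84 (SE 0.37, 95% interval -2.60 to -1.07, adjusted p = 0.024). That of HP lactation against control was -0.66 (95% interval -1.43 to 0.11, adjusted p = 0.70). HP pregnancy against HP lactation gave -1.17 (95% interval -1.94 to -0.41, adjusted p = 0.11). The comparisons of both HP groups with control share the control arrays.

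At day 21 the same gene had signals of 46.5, 34.0 and 46.1 in HP pregnancy livers and 64.6, 72.6 and 42.5 in HP lactation livers, against 73.0, 87.7 and 71.6 in control livers. All HP pregnancy values lay below all control values, with a log2 change of -0.88 (95% interval -1.65 to -0.12), which did not pass the threshold (adjusted p = 0.44). The log2 difference between the day 150 and the day 21 response to HP pregnancy was -0.95 (SE 0.52, unadjusted p = 0.082, adjusted p = 0.9992). With age, control livers had a Mogat1 change of 0.89 (adjusted p = 0.10) and HP pregnancy livers one of -0.07.

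The Mogat1 call rested on few arrays and a dim probe set. Its mean log2 signal was 6.08, just above the filter at 5.85, and all HP pregnancy signals of day 21 and 2 of 3 at day 150 were below the filter's signal of 57.5. With 50 added to each signal before the log2 step, the day 150 change was -1.09 (adjusted p = 0.022). Leaving out 1 array at a time moved it between -2.11 and -1.52, and the adjusted p was above 0.05 without control replicate 1 (0.10), without control replicate 2 (0.053) or without HP pregnancy replicate 2 (0.13). The summed signals of the adipocyte, stellate, macrophage and endothelial markers and of the sex-biased liver genes of HP pregnancy livers overlapped those of control livers at day 150. The genes most like Mogat1 over 18 arrays were Clpp, a mitochondrial protease subunit (r = 0.88, or 0.58 within groups), Emd (0.88, or 0.72) and Mrpl18, a mitochondrial ribosomal protein (0.79, or 0.43).

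Dgat2, which completes triglyceride, gave different answers on its probe sets. On the brighter set (1422678_at) no comparison passed the threshold. Its signals lay between 6629 and 8030.3 in HP pregnancy, 6858 and 8533 in HP lactation and 6826 and 7444 in control livers at day 150, and its change with age was 0.19, 0.14 and 0.11 in those diets. On the dimmer set (1422677_at) the signals at day 150 were 1074.5, 1209.8 and 1359.7 in HP pregnancy livers, against 2185, 2741.5 and 2888.5 at day 21. HP lactation livers had 2288, 1862 and 1293 at day 150, against 3198, 2899 and 3619 at day 21. In control livers the values were 1884, 1330.2 and 1821 at day 150, against 2612, 4018 and 2913 at day 21. No array of day 150 reached the day 21 arrays of its diet on this set. Tested among every kept probe set, the dimmer set was lower at day 150 in HP pregnancy (-1.10, SE 0.20, adjusted p = 0.00081), HP lactation (-0.87, adjusted p = 0.0042) and control livers (-0.91, adjusted p = 0.0050). In that fit 21.6%, 23.2% and 14.9% of all probe sets were called in the same diets. The log2 signals of both sets had a correlation of -0.19 over 18 arrays, and 0.38 within groups. Which set follows the Dgat2 messenger RNA was not tested.

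Pparg was 2.26-fold lower in HP pregnancy livers than in HP lactation livers at day 21. HP pregnancy livers had signals of 111.7, 169.8 and 168.9 and HP lactation livers 389.6, 277.1 and 342.4, while control livers had 191.6, 231.6 and 236.9. The 3 groups did not overlap, with control between the HP groups. The log2 change of HP pregnancy against HP lactation was -1.18 (SE 0.25, adjusted p = 0.025). Neither HP group passed the threshold against control: the change was -0.57 in HP pregnancy (95% interval -1.09 to -0.05, adjusted p = 0.47) and 0.60 in HP lactation (95% interval 0.09 to 1.12, adjusted p = 0.29). The Pparg call between the HP groups was lost without any 1 of the HP pregnancy arrays of day 21 or without HP lactation replicate 1, with adjusted p-values up to 0.14. With the compared arrays alone it had an adjusted p of 0.089.

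Marker sums of other cells and of sex-biased liver genes also differed in that comparison. The endothelial sum was 9671 to 12166 in HP pregnancy and 7759 to 8336 in HP lactation livers at day 21, and the stellate sum was 18862 to 20504 and 16269 to 18072 in the same order. All 8 macrophage markers were tested, and 0 of them passed the adjusted threshold, where 1.28% of all genes were called. Their median log2 change was 0.48, against 0.01 over all genes. Their summed signal overlapped, at 13248 to 17671 in HP pregnancy and 9902 to 14135 in HP lactation livers. The summed signal of female-biased liver genes was 2312 to 3191 in HP pregnancy livers, 4137 to 7780 in HP lactation livers and 2246 to 10974 in control livers. Xist is part of this sum, and the highest control sum was on replicate 2, where Xist was bright. The summed signal of male-biased liver genes was 33176 to 36678 in HP pregnancy livers, 18981 to 23334 in HP lactation livers and 31618 to 33791 in control livers. Neither HP group of day 21 held an array with bright Xist. The part of these differences in the Pparg comparison was not tested.

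At day 150 Pparg was at 150.6, 90.7 and 178.0 in HP pregnancy, 160.8, 161.6 and 177.0 in HP lactation and 218.4, 165.9 and 240.5 in control livers. These ranges overlapped, and the change of HP pregnancy against control was -0.61 (adjusted p = 0.17). Between days, Pparg was lower at day 150 in HP lactation livers, at 166.3 against 333.1 (log2 change -1.002, SE 0.25, adjusted p = 0.0062). The Pparg difference with age was -0.13 in HP pregnancy and -0.09 in control livers, neither past the threshold. The difference of the HP lactation responses between day 150 and day 21 was -0.91 (SE 0.35, unadjusted p = 0.017, adjusted p = 0.93), so the age changes of Pparg were not shown to differ between diets. The adipocyte, stellate, macrophage and male-biased sums of HP lactation livers, given with Lpl, also did not overlap between these days. Nor did the pancreas sum (5420 to 6685 at day 150, 1424 to 2336 at day 21) or the erythroid sum (465.0 to 958.5 against 287.4 to 405.8). The 8 macrophage markers had a median log2 change of 0.59 with age in these livers but did not move together. By adjusted p, 4 were called higher (Cd5l, Clec4f, Csf1r and Adgre1) and 1 lower (Marco, -1.29, adjusted p = 0.0081), where 25.7% of all genes were called. The part of these differences in the Pparg change was not tested. Rpa2, a DNA replication protein, was the gene most like Pparg (r = 0.87, or 0.78 within groups), followed by Tsr2 (0.87, or 0.49) and Eif2b1, a translation initiation factor (0.87, or 0.78).

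G0s2 inhibits Pnpla2, the lipase that starts the breakdown of stored triglyceride. Its signals at day 150 were 17459.7, 12129 and 18637 in HP pregnancy, 11425, 5977 and 5171.5 in HP lactation and 9665, 7325 and 9792 in control livers. Every HP pregnancy array lay above every array of the other diets at that day. The log2 change against control was 0.84 (SE 0.40, adjusted p = 0.25), and against HP lactation it was 1.16 (adjusted p = 0.14). At day 21 HP pregnancy livers had 11592, 10207 and 9371, HP lactation livers 7233, 3846 and 4721.5, and control livers 2641, 12703 and 7849. HP pregnancy again lay above HP lactation without overlap (1.03, adjusted p = 0.22), but not above control (0.69, adjusted p = 0.58). Between days, HP pregnancy livers lay higher at day 150 without overlap (0.61, adjusted p = 0.29). None of these G0s2 differences passed the threshold in the fit over all arrays. Its within-group SD of 0.60 was larger than that of 93.7% of genes, and control at day 21 was its widest group. Without control replicate 1 of day 21, the lowest G0s2 array, the day 21 change against control was 0.05 in HP pregnancy and -0.97 in HP lactation. When only the day 150 HP pregnancy and control arrays were fitted, the G0s2 change passed (adjusted p = 0.034). The change with age in HP pregnancy livers also passed when those arrays alone were fitted (adjusted p = 0.018).

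Plin5 coats droplets in tissues that burn fat and ties them to mitochondria. At day 150 its brighter probe set (1441915_s_at) had signals of 4812.5, 5742 and 7538 in HP pregnancy livers and 4443, 5059 and 3981 in HP lactation livers, against 4016.5, 4192 and 3394 in control livers. HP pregnancy lay above control without overlap, with a log2 change of 0.62 (SE 0.18, 95% interval 0.24 to 1.01), which missed the threshold (adjusted p = 0.071). On the second set (1424937_at) that change was 0.24 (adjusted p = 0.55 among every kept probe set). At day 21 the brighter set ranged between 4692 and 7036 in HP pregnancy, 4074 and 5475 in HP lactation and 4603 and 6263 in control livers, and no diet comparison passed. Both Plin5 sets varied together within groups (r = 0.90). Tomm70a, a receptor of the mitochondrial import machinery, had the log2 signal most like that of Plin5 (r = 0.83, or 0.68 within groups).

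Cideb, the CIDE protein of normal hepatocytes, which helps load lipid onto very low density lipoprotein, had the smallest spread of the tested members. Its within-group SD was 0.13, above that of 8.9% of genes. Day 150 signals were 4841, 4261 and 4429.7 in HP pregnancy, 5516, 5245 and 5862 in HP lactation and 6217, 5382 and 5484 in control livers. HP pregnancy was below the other diets without overlap at that day, with a log2 change of -0.34 against control that did not pass (adjusted p = 0.12). At day 21 the values were 4651, 6556 and 6002 in HP pregnancy, 5857, 6457 and 6405.5 in HP lactation and 6427, 6183 and 6009.6 in control livers. In HP pregnancy livers Cideb was lower at day 150 than at day 21 (-0.33, SE 0.12, adjusted p = 0.046), although the ranges overlapped. That call passed in 1 of 6 fits that left out 1 array of the compared groups. It was also lost without a filter, without a trend, with the replicate block and with the compared arrays alone, with adjusted p-values up to 0.088. Most marker sums that separate the days in HP pregnancy livers are given with Lpl. The pancreas sum also did, at 7416 to 8050.5 at day 150 against 2230 to 2733 at day 21. So did the erythroid sum, at 667.5 to 1311 against 261.8 to 349.5. Each of these lists had 1 marker above the filter. The part of all these sums in the Cideb change was not tested. Rnpep, an aminopeptidase, was the gene most like Cideb (r = 0.94, or 0.89 within groups).

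Cidea and Cidec, which fuse droplets in fat cells and in fatty liver, were dim. Cidea signals ranged between 3.9 and 69.6 over the 18 arrays and Cidec signals between 7.7 and 174.8, and most lay below 57.5. The highest Cidec signal was that of HP lactation replicate 1 at day 21, whose group also held 48.1 and 22.2. Fitted without a filter, neither gene passed in any comparison, and the SE of a log2 change was 1.03 for Cidea and 0.83 for Cidec. At these signals a change of a few fold was not detectable.

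**Figure D2:**
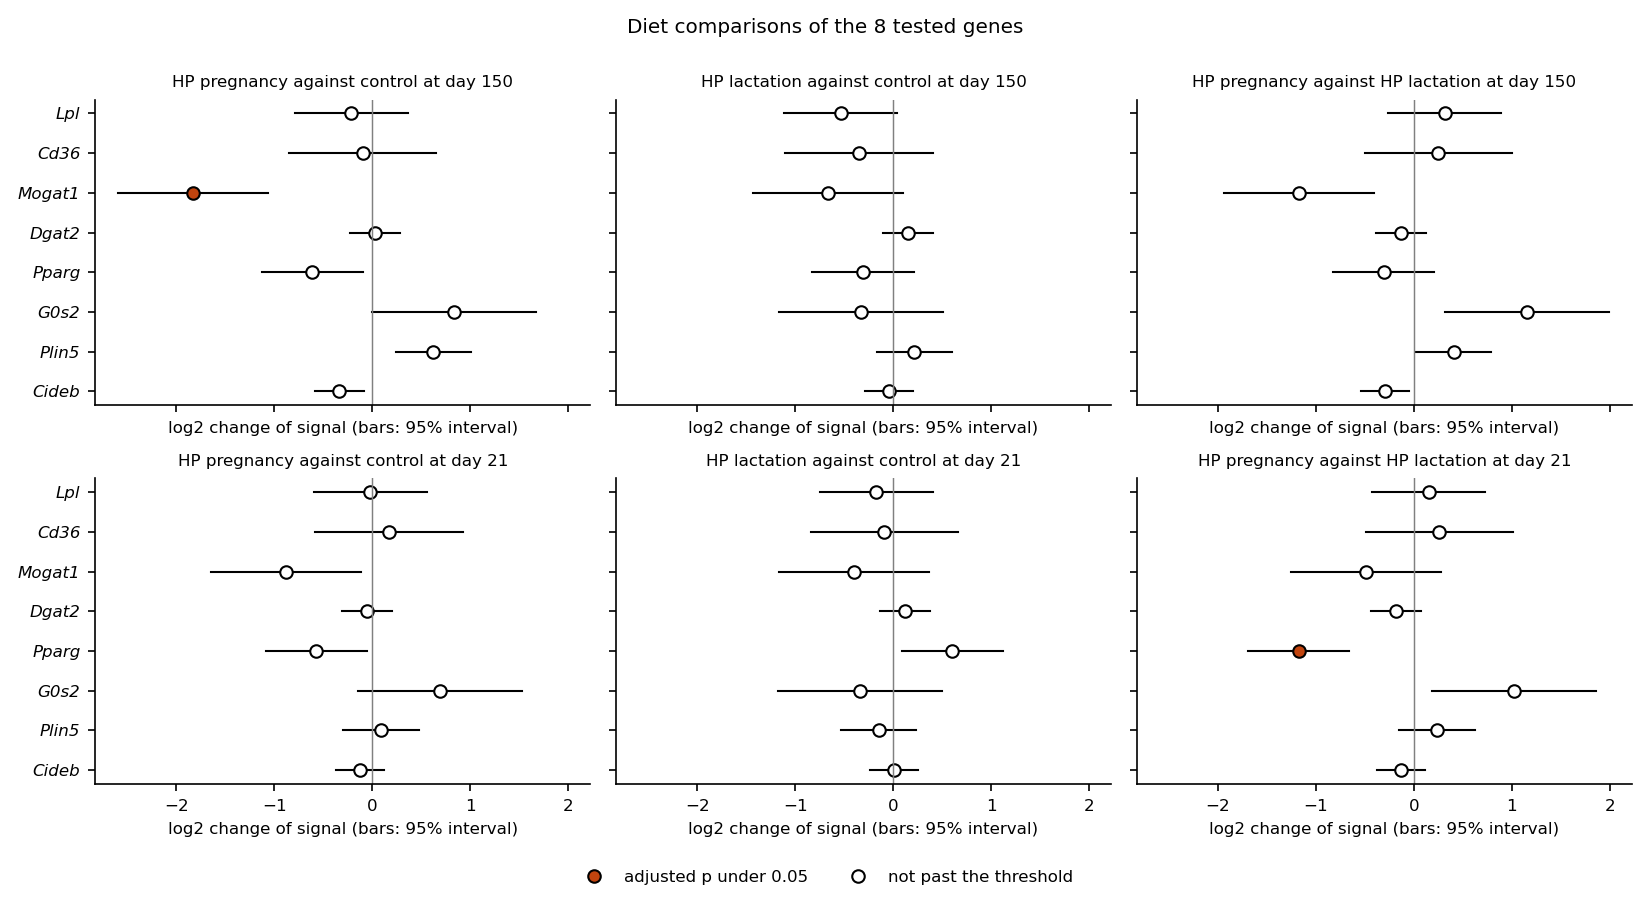
Log2 change of signal of the 8 tested genes in each diet comparison, with 95% intervals, day 150 in the upper and day 21 in the lower panels. Filled points passed an adjusted p of 0.05: Mogat1 in HP pregnancy against control at day 150 (-1.84) and Pparg in HP pregnancy against HP lactation at day 21 (-1.18).

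Counted over the 8 tested members, HP pregnancy against control at day 150 gave 1 lower call (Mogat1). Of all genes, 2.63% were called in that comparison, 1.11% as lower. The members' median log2 change was -0.16, against 0.00 over all genes. Mogat1, G0s2, Plin5 and Cideb, 4 of the 8, had no overlap between these groups, as had 27.9% of all genes. HP lactation against control at day 150 gave 0 member calls, with 0.00908% of all genes called. By limma's unadjusted p under 0.05 it held 0 members and 7.72% of genes. Mogat1 was its 1 member without overlap, against 13.7% of genes.

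At day 21, HP pregnancy against control gave 0 member calls and 0% of all genes were called. By limma's unadjusted p under 0.05 it held 2 members, Mogat1 and Pparg, and 9.98% of genes. The same 2 members had no overlap, against 18.2% of genes. HP lactation against control at day 21 gave 0 member calls, with 0.172% of genes called. By limma's unadjusted p under 0.05 it held 1 member, Pparg, and 14.3% of genes. Pparg was also the 1 member without overlap there, against 16.1% of genes.

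Between the HP groups, HP pregnancy against HP lactation at day 21 gave 1 lower call (Pparg), where 1.28% of all genes were called, 0.381% as lower. Pparg, G0s2 and Dgat2 had no overlap, against 20.9% of genes. At day 150 that comparison gave 0 member calls, with 0.717% of genes called. By limma's unadjusted p under 0.05 it held 4 members (Mogat1, G0s2, Plin5 and Cideb) and 17.4% of genes. Mogat1, G0s2 and Cideb had no overlap, against 22.9% of genes. The differences of the diet responses between day 150 and day 21 gave 0 member calls for either diet, with 0.0182% of all genes called in each. By limma's unadjusted p under 0.05 they held 0 members for HP pregnancy, with 3.87% of genes, and 1 (Pparg) for HP lactation, with 5.1% of genes.

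With age, HP pregnancy livers gave 2 lower member calls (Lpl and Cideb), HP lactation livers 2 (Lpl and Pparg) and control livers 1 (Lpl). Of all genes, 23.6%, 25.7% and 17.8% were called in those diets, and 11.5%, 11.6% and 8.08% as lower, so the members' counts of 2, 2 and 1 of 8 lie near the background. Members without overlap between days were Lpl, Dgat2 and G0s2 in HP pregnancy, Lpl, Mogat1 and Pparg in HP lactation and Lpl, Mogat1 and Plin5 in control livers, against 43.9%, 37.2% and 35.2% of all genes. No member was called higher at day 150 than at day 21 in any diet. With 50 added to the signal, or without a trend in the fit, Mogat1 was called higher in control livers (adjusted p = 0.048 and 0.049), and with the compared arrays alone G0s2 was called higher in HP pregnancy livers. The plot of changes with age sets all 13 probe sets side by side.

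**Figure D3:**
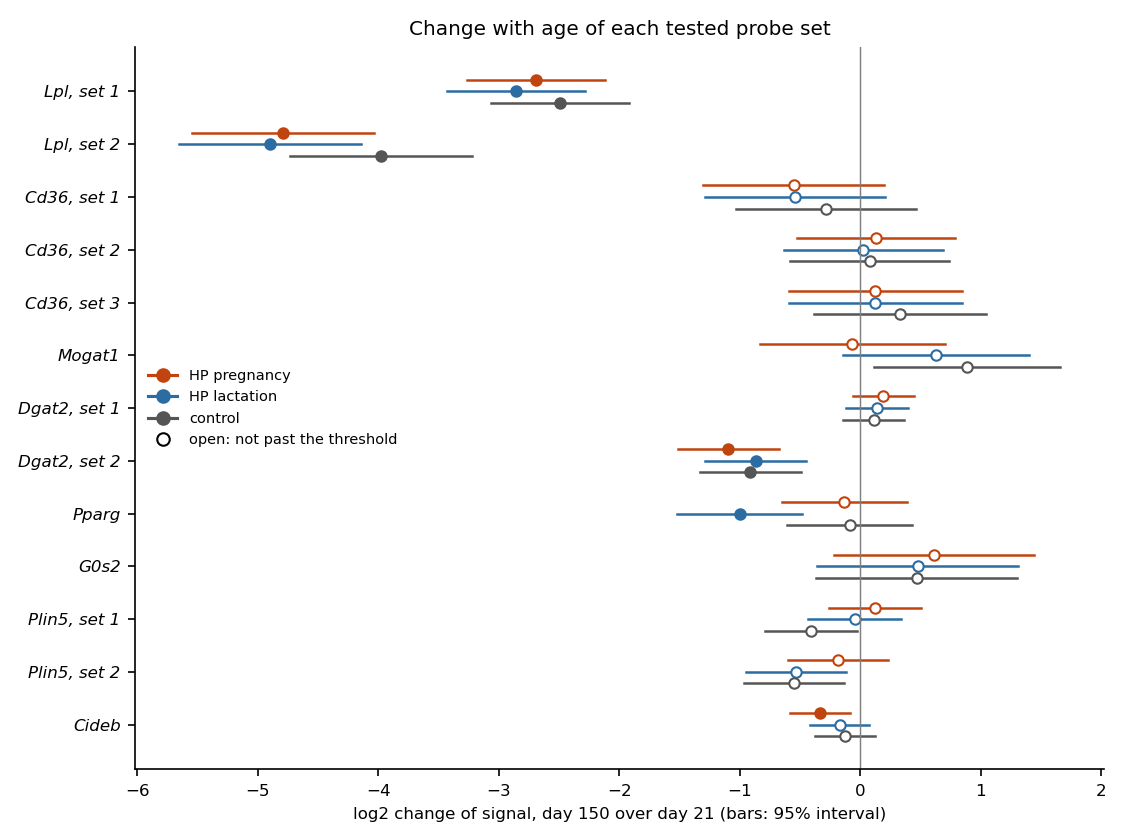
Log2 change of signal at day 150 over day 21 of the 13 tested probe sets, with 95% intervals, in HP pregnancy, HP lactation and control livers, from the fit of every kept probe set. Filled points passed an adjusted p of 0.05. Both Lpl sets and the second Dgat2 set lie below 0 and are filled in all 3 diets, and Pparg is filled in HP lactation alone. Other sets also lie below 0 in all 3 diets, among them Cideb and Pparg.

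Other genes of the pathway were counted from lists by role. Of 19 further genes of fatty acid uptake and lipoprotein lipolysis, 16 were tested, and 0 passed against control in either diet at either day. There limma's unadjusted p was under 0.05 for 2 of them in HP pregnancy and 3 in HP lactation at day 21. The shares of all genes were 9.98% and 14.3%. At day 150 it was under 0.05 for 1 in HP lactation, with 7.72% of all genes. It was under 0.05 for 6 in HP pregnancy at day 150, a count that cannot be weighed without its share over all genes. For this list and those below, the share of all genes at that p was 7.72% to 17.4% in the diet comparisons where it is given. It is not given for HP pregnancy against control at day 150 or against HP lactation at day 21. Counts of those comparisons cannot be weighed against that range. Vldlr, the receptor of very low density lipoprotein, fell with age in each diet. HP pregnancy livers had Vldlr signals of 251.9, 67.5 and 503.8 at day 150, against 1503, 1433.5 and 1799.8 at day 21. HP lactation livers had 249.8, 235.5 and 230.7 at day 150, against 2119.9, 2019.6 and 2831 at day 21, and control livers 475.2, 332.6 and 869.7 at day 150, against 1396, 2084 and 1474 at day 21. No day 150 array reached a day 21 array. In HP pregnancy, HP lactation and control livers the log2 changes were -2.94 (adjusted p = 0.00021), -3.27 (6.0e-05) and -1.65 (0.020), with an SE of 0.46. The highest control array at day 150 was again replicate 3. Of the 16 genes, 1, 2 and 1 were called lower with age in HP pregnancy, HP lactation and control livers. The shares of all genes were 11.5%, 11.6% and 8.08%. Gpihbp1, which anchors Lpl to the capillary wall, was lower at day 150 in HP lactation livers (-0.59, adjusted p = 0.018), where Slc27a5, a transporter and bile acid ligase, was higher (0.48, adjusted p = 0.018). Fabp2 was higher in HP pregnancy than in HP lactation livers at day 21 (0.61, adjusted p = 0.038).

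Of 17 genes of glycerolipid synthesis, 13 were tested. Agpat2, which makes phosphatidic acid, was the one that passed in HP pregnancy against control at day 150, with 4762 against 7321 (-0.62, SE 0.16, adjusted p = 0.042) and no overlap between the arrays. Acsl4, which activates long polyunsaturated fatty acids, was the one that passed in HP lactation against control at day 21, with 4432 against 2443 (0.86, SE 0.14, adjusted p = 0.011). None passed in the other 2 comparisons with control, where limma's unadjusted p was under 0.05 for 4 genes in HP pregnancy at day 21 and for 0 in HP lactation at day 150. With age, 4 genes were lower in HP pregnancy livers (Agpat2, Agpat3, Acsl3 and Gpat3), 2 in HP lactation livers (Agpat3 and Acsl3) and 2 in control livers (Agpat2 and Agpat3), and none was higher. Agpat3 gave -0.69, -0.61 and -0.68 in those diets. The shares of all genes called lower with age were 11.5%, 11.6% and 8.08%.

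Of 20 genes of the droplet coat and of lipolysis, 19 were tested, and none passed in any comparison between diets, where limma's unadjusted p was under 0.05 for 1 to 7 of them. Fitm1, an endoplasmic reticulum protein of droplet formation, was higher at day 150 in HP pregnancy (1.28, adjusted p = 0.0059), HP lactation (1.61, adjusted p = 0.00099) and control livers (1.24, adjusted p = 0.010). Mgll, which splits monoacylglycerol, was lower in the same diets (-0.81, -0.62 and -0.80). Pnpla2, the target of G0s2, was lower at day 150 in HP lactation livers (-1.31, adjusted p = 0.0045), with overlapping ranges. In all, 2 of the 19 genes rose and 3 fell with age in HP pregnancy livers. In HP lactation livers 4 rose and 2 fell, and in control livers 1 rose and 1 fell. Of all genes, 23.6%, 25.7% and 17.8% were called in those diets, in either direction.

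Of 12 nuclear receptors and coactivators of lipid genes, 11 were tested and none passed between diets, where limma's unadjusted p was under 0.05 for 0 to 3 of them. Nr2f2, an orphan receptor, was lower at day 150 in HP pregnancy (-0.64), HP lactation (-0.54) and control livers (-0.48). Srebf1, the activator of fatty acid synthesis, was lower in HP pregnancy (-0.82, adjusted p = 0.015) and control livers (-0.71, adjusted p = 0.039). Ppara, the receptor of fatty acid oxidation, was lower in HP pregnancy livers (-0.58, adjusted p = 0.026), as was Mlxipl (-0.39). Ppargc1b was lower in HP lactation livers (-1.17, adjusted p = 0.031), with overlapping ranges. In all, 4, 2 and 2 of the 11 were called lower with age in HP pregnancy, HP lactation and control livers. The shares of all genes were 11.5%, 11.6% and 8.08%.

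Of 13 genes that PPAR gamma drives in fat cells, 7 were tested, among them the members Cd36 and Lpl, and none passed between diets, where limma's unadjusted p was under 0.05 for 0 to 2 of them. Pparg differed between the HP groups at day 21, and in that comparison the 7 genes had a median log2 change of 0.15, against 0.01 over all genes. The hormone Fgf21 had the smallest p among them there, with 1191 in HP pregnancy and 400.3 in HP lactation livers and no overlap (1.57, adjusted p = 0.12). With age Fgf21 fell in HP pregnancy (-3.24), HP lactation (-2.08) and control livers (-2.39). Fabp4 fell in HP pregnancy (-0.90, adjusted p = 0.020) and HP lactation livers (-1.02, adjusted p = 0.0087). With Lpl, 3, 3 and 2 of the 7 were called lower with age in HP pregnancy, HP lactation and control livers. The shares of all genes were 11.5%, 11.6% and 8.08%.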

How the data were processed

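The authors measured liver RNA on Affymetrix arrays and deposited 1 signal intensity per probe set and array, made with MAS5 in GCOS 1.4 per the submitters' processing notes; the values are linear, and their trimmed mean was 500 on each array. No further scaling was applied, and log2 was taken with 0 added. The array annotation named 1 gene for 34958 of 45101 probe sets, and 34754 of these matched the reference by gene ID. The filter kept the 22519 probe sets whose log2 signal, averaged over arrays, reached the median of all sets that are not controls (5.85). The brightest kept set of each gene was used, which left 11018 genes. Group means were fitted with limma 3.58.1 under R 4.3.3 (eBayes with trend) over 18 arrays for 11 comparisons, two-sided, with Benjamini-Hochberg adjustment in each comparison. The residual degrees of freedom were 12, plus 6.47 from the prior, and the number of arrays limits the precision: the median SE of a log2 change was 0.19. The code was tested on simulated data.

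The members and gene lists were chosen with earlier results of these data known. All members were named, with up to 6 genes of each other list per comparison by smallest p among those past the threshold (up to 2 where none passed), and the 3 genes most like each member. The labels state no pairing, and replicate numbers were not used to pair arrays in the main fit. Of 30 same-numbered pairs, 1 had a correlation of deviations over 0.1 (median -0.02), which cannot exclude a pairing. The alternatives were each array left out, the arrays without bright Xist, a replicate block, the compared arrays alone, eBayes without trend, a fit of all kept probe sets, an added signal of 50, quantile normalization and other filters. Figures were drawn with matplotlib 3.10.9.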

Additional observations from a re-analysis of the deposited data

How the results depend on the processing

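Of 95 recomputed counts of called members that kept all arrays of a group or left out the arrays with bright Xist, 84 stayed within 1.5 times the count above and 11 did not. In HP pregnancy against control at day 150 (1 above) the count was 0 with a filter at the 70th percentile, which removes Mogat1 and Pparg, and 2 with the compared arrays alone (Mogat1 and G0s2). In HP pregnancy against HP lactation at day 21 (1 above) it was 0 under both of those settings. For age in control livers (1 above) it was 2 with 50 added to the signal and 2 without trend (Lpl and Mogat1), and 2 with every kept probe set (Lpl and Dgat2). For age in HP pregnancy livers (2 above) it was 1 without a filter, 1 without trend and 1 with the replicate block, each of which lost Cideb. With the compared arrays alone it stayed 2, but Cideb was lost (adjusted p = 0.088) and G0s2 was gained as higher at day 150 (adjusted p = 0.018). For age in HP lactation livers (2 above) it was 1 with the filter at the 70th percentile. With 1 array left out, the count was 0 to 1 for HP pregnancy against control at day 150, 0 to 1 for HP pregnancy against HP lactation at day 21, 1 to 2 for age in HP pregnancy, 2 to 2 for age in HP lactation and 1 to 1 for age in control livers, and 0 to 0 in the other 6 comparisons. Leaving out the 2 arrays with bright Xist together changed no count. No fit with the replicate block was possible for comparisons with HP lactation at day 150, whose arrays are numbered 4 to 6; in the others it moved the count by over 1.5 times for age in HP pregnancy livers alone. Of 1362 recomputed changes of single members, 1326 kept their side of the threshold and, where not called, moved by less than 1 spread between replicates. A further 17 lost the threshold, 4 gained it, and 15 stayed uncalled but moved by at least 1 spread. Of the changes called in either fit, 0 reversed direction. The direction of changes called in neither fit was not compared. Signals near or below the filter (Mogat1, Cidea and Cidec) limit what could be detected.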

Other observations

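Some members followed each other over the arrays, given here as Pearson correlations of log2 signal over 18 arrays with no test, since the arrays share groups and scaling. Cd36 and Mogat1 had a correlation of 0.09 over all arrays but 0.71 after group means were removed. Plin5 and Cideb had -0.54 over all arrays and -0.65 within groups. Pparg and Cideb had 0.67 over all arrays and 0.45 within groups. G0s2 and Cideb had -0.62 over all arrays and -0.18 within groups.

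Outside the members, the gene most like G0s2 was Pcnp (0.82, or 0.71 within groups), followed by Hdac11, a histone deacetylase (0.78, or 0.73), and Trim12c (0.76, or 0.70). Nearest to the brighter Dgat2 probe set were Orm2, an acute phase protein (0.78, or 0.63), Per2, a gene of the circadian clock (0.76, or 0.63), and Atg9a, a protein of autophagy (0.75, or 0.51). Cd36 was closest to Flot1, a membrane raft protein (0.80, or 0.82), Vps72 (0.78, or 0.76) and Pfdn2, a chaperone subunit (0.77, or 0.82).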
